A study of Mus musculus with 17 samples.

Results

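Keratins Krt5, Krt14, Krt17, Krt6a, Krt6b, Krt16, Krt7, Krt8, Krt18 and Krt19 were examined in 17 mammary tumors of FVB mice that carried a CUX1 transgene under the MMTV promoter. The genes were found by their name in the array files, and all 10 were present, with 12 probes out of 41174 and 1 value each among 28786 genes. Krt7 and Krt8 had 2 probes, and the brighter probe stood for the gene. Of the tumors, 9 came from p75-CUX1 and 8 from p110-CUX1 mice, each from a different mouse, and by histology 4 were adenosquamous carcinomas, 9 solid carcinomas, 2 adenomyoepitheliomas, 1 adenocarcinoma and 1 adenoma. All 4 adenosquamous carcinomas were p75-CUX1 tumors, and 6 of the 9 solid carcinomas were p110-CUX1 tumors. From the expression of Wnt genes on these same arrays the study also drew 3 clusters, named here high-Wnt (5 tumors), medium-Wnt (5) and low-Wnt (7), which are not independent of the samples. RNA of laser-captured epithelial cells was amplified in 2 rounds and compared in swapped dyes with an amplified reference RNA pooled from mouse cell lines. Values below are log2 ratios of tumor over that reference, and a value of 0 means the level of the reference and not absence. No normal gland was on the arrays, and the age of the mice is not given in the labels used here.

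Keratins are the intermediate filament proteins of epithelial cells, and each filament needs a type II keratin (Krt5, Krt6a, Krt6b, Krt7, Krt8) with a type I partner (Krt14, Krt16, Krt17, Krt18, Krt19). In the mammary gland, Krt5, Krt14 and Krt17 mark the basal, myoepithelial layer, and Krt8, Krt18 and Krt19 mark the luminal cells, where Krt7 is also found. Krt6a, Krt6b and Krt16 are scarce in resting epithelium and are known for their induction in wounded or hyperproliferative skin, from which their name as stress keratins comes.

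RefSeq promoters of the GRCm38.p6 build were at hand for 5 of the 10 genes, and those of both partner pairs, basal and luminal, are shown because the report returns to these pairs. Each stretch covers the 250 bases before the start of the gene, 5′ to 3′, and capitals mark the CACCC box (CACCC on either strand), a motif that 52% of all promoter stretches of this length hold.
Krt5 (chr15:101712906-101713155, minus strand): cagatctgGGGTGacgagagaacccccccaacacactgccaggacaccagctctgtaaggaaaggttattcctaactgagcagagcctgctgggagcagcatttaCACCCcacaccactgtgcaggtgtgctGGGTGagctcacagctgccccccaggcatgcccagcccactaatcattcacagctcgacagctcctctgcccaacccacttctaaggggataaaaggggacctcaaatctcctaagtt
Krt14 (chr11:100206031-100206280, minus strand): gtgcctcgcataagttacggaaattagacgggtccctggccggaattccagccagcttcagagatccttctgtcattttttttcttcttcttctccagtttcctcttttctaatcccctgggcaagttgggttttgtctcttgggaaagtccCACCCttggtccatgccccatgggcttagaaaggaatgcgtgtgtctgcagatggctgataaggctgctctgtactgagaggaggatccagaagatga
Krt8 (chr15:102004343-102004592, minus strand): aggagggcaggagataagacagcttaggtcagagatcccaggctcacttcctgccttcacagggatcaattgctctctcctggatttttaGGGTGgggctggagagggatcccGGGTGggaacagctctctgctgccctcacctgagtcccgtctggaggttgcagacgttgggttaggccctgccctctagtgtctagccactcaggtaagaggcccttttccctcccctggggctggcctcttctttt
Krt18 (chr15:102027966-102028215, plus strand): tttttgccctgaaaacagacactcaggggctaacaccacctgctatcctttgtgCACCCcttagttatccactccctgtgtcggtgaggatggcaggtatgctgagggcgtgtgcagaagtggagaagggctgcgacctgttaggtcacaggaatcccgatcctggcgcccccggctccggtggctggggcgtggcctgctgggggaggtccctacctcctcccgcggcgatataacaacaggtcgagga
Krt5 and its partner Krt14 lie on different chromosomes, 15 and 11. Krt8 and Krt18 are neighbors on chromosome 15, with starts 23.9 kb apart on opposite strands. The CACCC box was found 3 times in the stretch of Krt5, 2 times in that of Krt8 and 1 time each in those of Krt14 and Krt18. The TATA box (TATAAA, in 12.4% of stretches), the AP-1 site (TGANTCA, in 6.75%) and the TCF site (CTTTGAT, in 3.21%), searched on both strands, were found in none of the 4.

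The probes of Krt7 did not give the same values. A stretch of 30 of the 60 bases of each probe is shown for Krt16, Krt5 and both probes of Krt7, with a polyadenylation signal (AATAAA) in capitals.
Krt16: tggtggtaggctAATAAAgctttttggttg
Krt5: tgacttcctccagagtctgtccAATAAAat
Krt7, brighter probe: gctgttggctttAATAAAgggcctctctga
Krt7, other probe: gctggcaatcaaggatgctcatgctaagca
The probes of Krt16 and Krt5 and the brighter probe of Krt7 hold the signal, which as a rule lies near the end of a transcript, and the other Krt7 probe does not. The Krt6a and Krt6b probes share a run of at most 6 bases, so these near-identical genes were read by unlike probes.

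Among these tumors p110-121 stood apart and went against its label. Labelled a solid carcinoma of epithelial cells, it was the only tumor in which Epcam, Cdh1, Cldn7 and Elf3, markers of epithelium, were all not well above background on every array. Cldn7 was measured in each of the other 16 tumors, at 1.23 to 3.85. All 6 immune markers were measured in p110-121, with a mean log2 ratio of 2.80, and the other tumors reached at most 0.89. Of the 6, 5 were highest in p110-121, and Cd3e, of T cells, was 0.35 there and up to 0.85 elsewhere. Ptprc, the pan-leukocyte antigen CD45, was 0.79 there against -4.06 to -1.06 elsewhere. Lyz2, a lysozyme of macrophages and neutrophils, was 7.17 against at most 5.07. The part of these cells in the keratin values was not tested. The main differences that include p110-121 are therefore also given without it. Tumor signals were weakest in p110-98, p110-374 and p110-225. All p75-CUX1 arrays were scanned in a different year from all p110-CUX1 arrays, so transgene and scan year cannot be told apart. In these bulk samples fewer cells of a type and less RNA per cell cannot be told apart either.

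**Figure D1:**
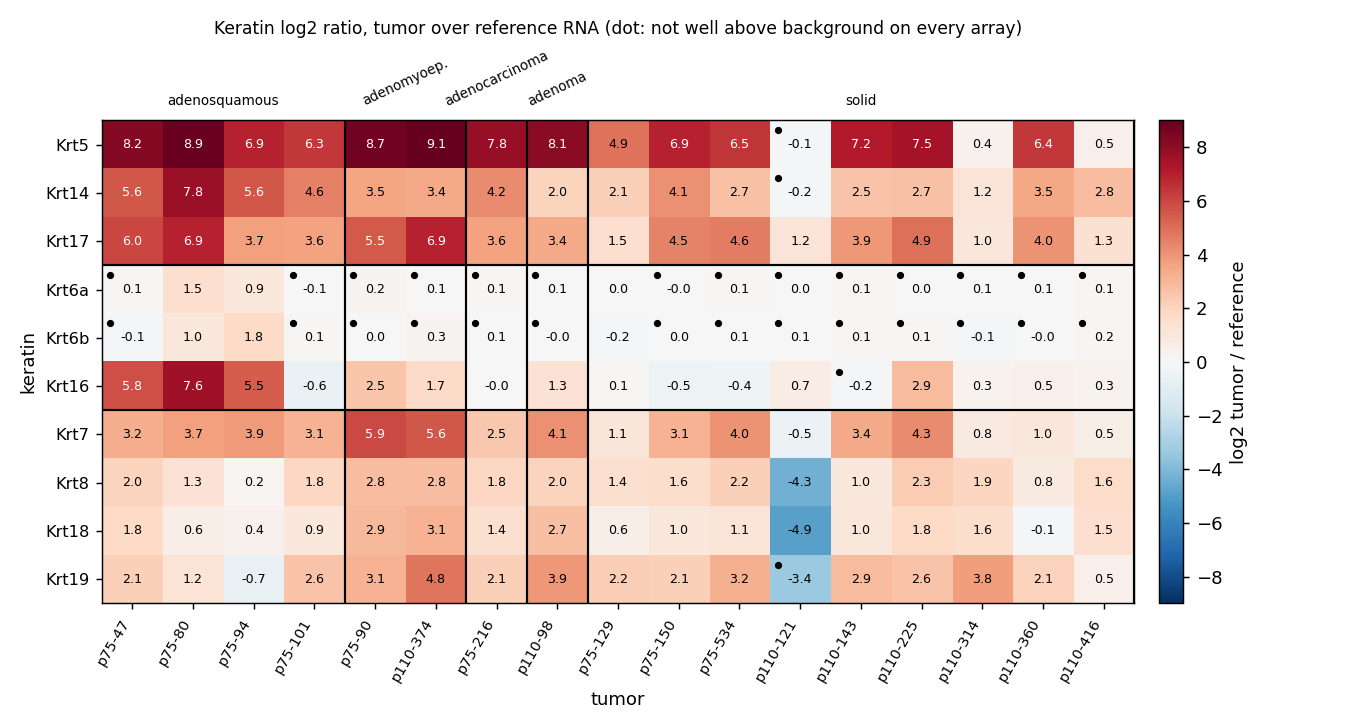
Log2 ratio of tumor over reference RNA (color and number) for the 10 keratins (vertical axis, basal, stress and luminal from top to bottom) in the 17 tumors (horizontal axis, by histological type), with a dot where the probe was not well above background on every array of the tumor. Krt5 lies above 4 in 14 tumors and near 0 in p110-121, p110-314 and p110-416, Krt16 stands out in p75-47, p75-80 and p75-94, and Krt8, Krt18 and Krt19 are below 0 together in p110-121.

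Krt5 and Krt17 were far above the reference in most tumors, whatever their type, and were lowest in a few solid carcinomas. Krt5 was 8.23, 8.89, 6.92 and 6.34 in the adenosquamous carcinomas p75-47, p75-80, p75-94 and p75-101, and 8.65 and 9.07 in the adenomyoepitheliomas p75-90 and p110-374. It was 7.83 in the adenocarcinoma and 8.14 in the adenoma. In 14 of the 17 tumors the reference channel measured Krt5 above background on all arrays. It did so on 1 of 2 arrays of p75-80, where the ratio was 11.91 with the tumor in Cy5 and 5.87 in Cy3, on 1 of 2 of p110-121 and on 3 of 4 of p110-143, so the ratios of these tumors are less certain. Among the 9 solid carcinomas it ran from -0.11 to 7.52 with a median of 6.39. The values fell into separate groups: 14 tumors lay at 4.86 or higher, and p110-121, p110-314 and p110-416, all solid p110-CUX1 carcinomas, at 0.45 or lower. All arrays of p110-314 and p110-416 had Krt5 well above background, and no array of p110-121 did. Krt17 was also lowest in these 3 tumors, at 1.17 in p110-121, 0.99 in p110-314 and 1.34 in p110-416, next to 1.48 in p75-129. Krt14, the partner of Krt5, was -0.19, 1.18 and 2.77 in them. The value of 2.77 in p110-416 was above the median of the solid carcinomas, 2.66, with Krt5 at 0.45. Of the luminal keratins, Krt8 was 1.94 in p110-314 and 1.63 in p110-416, within the range of the other tumors, and -4.32 in p110-121. Krt7 was lowest in the same 3 tumors, at 0.79 in p110-314, 0.51 in p110-416 and -0.54 in p110-121. Krt19 was 3.79 in p110-314, 0.45 in p110-416 and -3.37 in p110-121. The mean of 5 myoepithelial markers was also lowest in p110-416 and p110-314, at -1.22 and -0.55, and was 0.20 in p110-121, with the other tumors at -0.32 to 3.57. Of these markers Acta2, the smooth muscle actin, was -4.62 in p110-416 and -2.38 in p110-314, and at least -1.26 elsewhere. Cnn1, a calponin, was -1.92 and -0.86, and -0.94 in p110-121, where it was not well above background on every array. Myh11, Mylk and Oxtr did not share this order: Myh11 was 1.01 in p110-416 and -0.13 in p110-314, Mylk -0.60 and -0.67, and Oxtr 0.02 and 1.28. Their part in the Krt5 values was not tested.

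Krt14 was the keratin that set the adenosquamous carcinomas apart most clearly. It was 5.58 in p75-47, 7.76 in p75-80, 5.56 in p75-94 and 4.56 in p75-101, whereas the solid carcinomas ran from -0.19 to 4.09 with a median of 2.66. The types did not overlap. Over all genes, 0.195% had an adenosquamous range wholly above the solid one, and of the keratins Krt14 was the only such gene, 1 of 10. The mean was 5.87 ± 1.35 (SD, n = 4) against 2.37 ± 1.25 (SD, n = 9), a difference of 3.50 on the log2 scale or 11.3-fold. An exact two-sided permutation test gave p = 0.0014, the smallest that 4 against 9 tumors allow, unadjusted and 1 of 40 such tests of a keratin. In the limma fit over all 28786 genes the SE was 0.70, and the adjusted p of 0.494 did not pass the threshold of 0.05. Without p110-121 the difference was 3.18 (exact permutation p = 0.00202). Among p75-CUX1 tumors alone it was 2.90, again with no overlap (exact permutation p = 0.0571, 4 against 3 tumors).

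Other basal keratins were less clear-cut between these types. Krt5 averaged 7.59 ± 1.17 (SD, n = 4) in adenosquamous and 4.44 ± 3.24 (SD, n = 9) in solid carcinomas, with the 3 tumors near 0 among the latter, and Krt17 averaged 5.06 ± 1.67 and 2.99 ± 1.69. Neither passed over all genes (limma adjusted p = 0.871 for both), and the types overlapped. Without p110-121 the differences were 2.58 for Krt5 and 1.84 for Krt17 (exact two-sided permutation p = 0.119 and 0.099). Called keratins numbered 0 of 10 in this comparison, as did 0 of 28786 genes (0%) by limma. At an unadjusted p under 0.05 there were 1588 genes and 5 of the keratins: Krt14, Krt16, Krt6a, Krt6b and Krt17. Of these, Krt6a and Krt6b were measured on every array in 2 of the 4 adenosquamous and 1 of the 9 solid carcinomas. The median difference was 1.09 over the 10 keratins and -0.00611 over all genes.

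**Figure D2:**
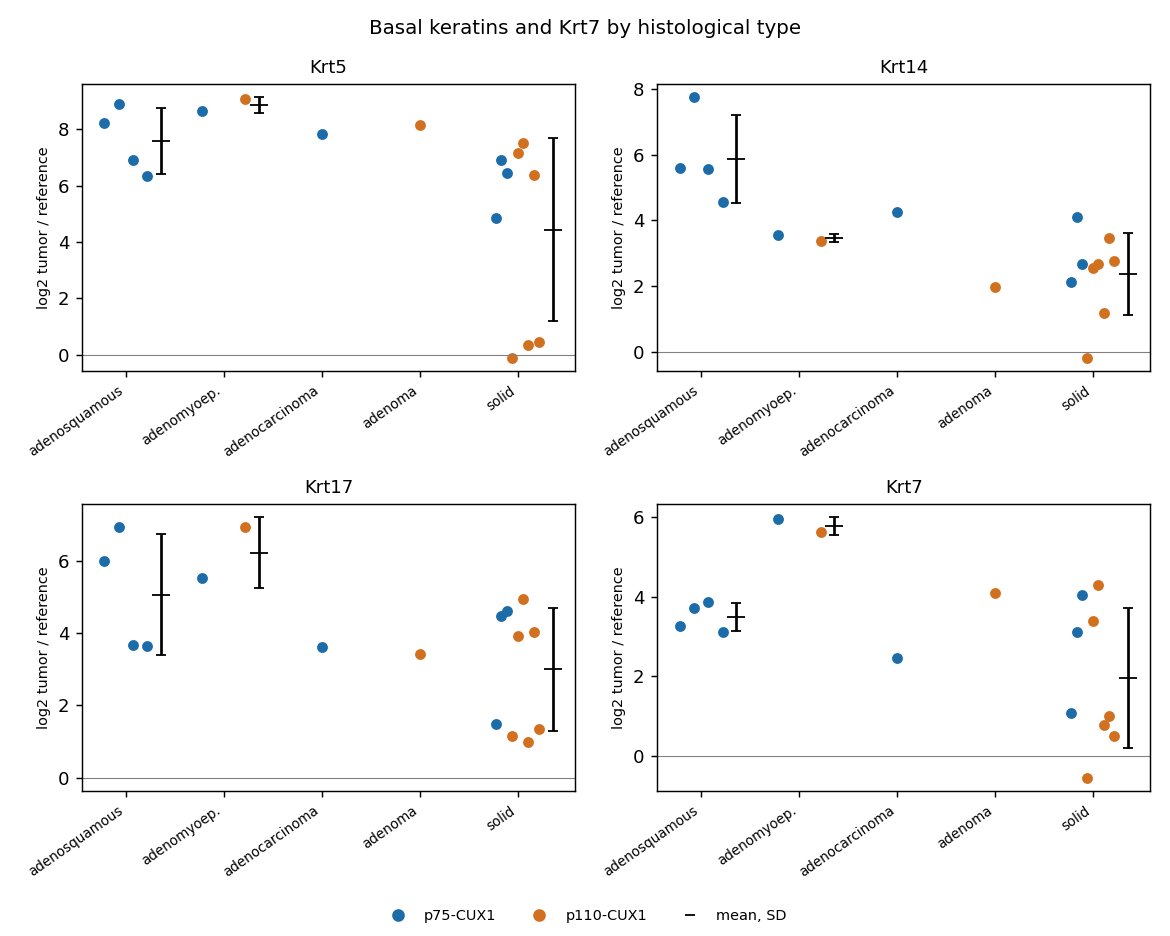
Log2 ratio of tumor over reference RNA (vertical axis) of Krt5, Krt14, Krt17 and Krt7 by histological type (horizontal axis), 1 point a tumor, colored by transgene, with mean and SD for types of more than 1 tumor. Krt14 of the 4 adenosquamous carcinomas, 4.56 to 7.76, lies above that of the 9 solid carcinomas, and 3 solid carcinomas have Krt5 near 0.

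The stress keratin Krt16 had the widest contrast within a type. It was 5.78 in p75-47, 7.64 in p75-80 and 5.46 in p75-94, and -0.60 in p75-101, the fourth adenosquamous carcinoma. These ratios mean levels 55.1 and 44.1 times that of the reference in p75-47 and p75-94, and 0.661 times in p75-101, the lowest of all 17 tumors. p75-47 and p75-94 differed by less than the median gap between swapped dyes for this gene, 0.51. Outside this type the highest values were 2.86 in the solid carcinoma p110-225, 2.52 in the adenomyoepithelioma p75-90 and 1.69 in the adenomyoepithelioma p110-374. Solid carcinomas other than p110-225 stayed between -0.47 and 0.69. The adenosquamous mean of 4.57 ± 3.58 (SD, n = 4) exceeded the solid mean of 0.42 ± 1.0 (SD, n = 9) by 4.15 (exact two-sided permutation p = 0.014), but the limma adjusted p was 0.798. Without p110-121 it was 4.19 (exact two-sided permutation p = 0.0182). Without p75-101 the difference was 5.87 and passed (adjusted p = 0.00393 by limma). Leaving that tumor out is a choice made after its value is known.

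By cluster, Krt16 was the keratin that passed the test over all genes. In high-Wnt tumors it was 2.86 in p110-225, 5.46 in p75-94, 7.64 in p75-80, 1.69 in p110-374 and 5.78 in p75-47. In low-Wnt tumors it ran from -0.60 to 0.47 with a median of -0.19, and the clusters did not overlap. The 5 medium-Wnt tumors lay between, from -0.04 to 2.52 with a median of 0.69, and overlapped with both. High-Wnt tumors averaged 4.69 ± 2.39 (SD, n = 5) and low-Wnt tumors -0.07 ± 0.44 (SD, n = 7). The difference was 4.76 (SE 0.799), or 27.1-fold, with a limma adjusted p of 0.0301 over 28786 genes. The exact two-sided permutation p was 0.00126, the smallest that 5 against 7 tumors allow. Of all genes, 0.184% were called and 0.959% had a high-Wnt range wholly above the low-Wnt one, and of the 10 keratins 1 was called and 1 did not overlap, Krt16 in each case. The call was close to its threshold. It passed in 21 of 33 other settings, with adjusted p from 0.000452 to 0.581, and the difference stayed between 4.02 and 6.37. It did not pass without p75-47, p75-94, p75-101, p75-150, p110-143, p110-314 or p110-360, left out 1 at a time, with adjusted p from 0.0519 to 0.0657. With transgene as a covariate it was 4.61 (limma adjusted p = 0.0286).

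The size of the cluster difference in Krt16 was unlike in the transgenes. In p75-CUX1 tumors, high-Wnt averaged 6.29 ± 1.18 (SD, n = 3) and low-Wnt -0.48 ± 0.12 (SD, n = 3). In p110-CUX1 tumors the means were 2.27 ± 0.83 (SD, n = 2) and 0.23 ± 0.29 (SD, n = 4). Differences were thus 6.77 and 2.04, and high-Wnt was above low-Wnt without overlap in both. The exact two-sided permutation p was 0.1 and 0.0667, the smallest that 3 against 3 and 2 against 4 tumors allow. Both high-Wnt p110-CUX1 tumors, p110-374 and p110-225, are among the 3 dimmest, with tumor signal well above background at 20.9% and 24.7% of probes against 34.7% to 54.4% in the high-Wnt p75-CUX1 tumors, and the part of this in the smaller difference was not tested. The contrast of these differences, 4.73 (SE 0.963), did not pass over all genes in limma (adjusted p = 0.0799), nor did that of any of the 10 keratins, with 0.0104% of genes called. At an unadjusted p under 0.05, 2 keratins, Krt16 and Krt6a, and 3622 genes were found by limma. It passed with median centering (adjusted p = 0.0228), in the tumor color alone (0.019), without p75-90 (0.0445) and without p110-143 (0.0283). The fitted contrast of Krt6a was 0.86, and passed in limma without p75-47 (1.24, adjusted p = 0.0206), where Krt6a was measured on 1 of 2 arrays. No low-Wnt and no p110-CUX1 array measured Krt6a, so neither this size nor this call is read as a difference. The 3 high-Wnt p75-CUX1 tumors are all adenosquamous carcinomas. The low-Wnt p75-CUX1 tumors hold the adenosquamous carcinoma p75-101, at -0.60, and the solid carcinomas p75-150 and p75-534, at -0.47 and -0.37.

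Krt6a and Krt6b, type II partners of Krt16, were rarely above background. Both were measured on every array in p75-80, p75-94 and p75-129 and in no other tumor. Krt6a was 1.48 in p75-80, 0.94 in p75-94 and 0.03 in p75-129, and Krt6b was 0.99, 1.78 and -0.18. The tumors with raised Krt6a and Krt6b were thus 2 of the 3 with high Krt16, and the third, p75-47, had Krt16 at 5.78 with Krt6a and Krt6b not well above background on every array. No array of the 7 low-Wnt tumors measured either gene. The tumor color of high-Wnt tumors was on average 1.36-fold brighter for Krt6a and 1.47-fold for Krt6b than that of the low-Wnt tumors (limma adjusted p of the ratios 0.378 and 0.366). Against p110-CUX1 tumors, where no array measured them, p75-CUX1 tumors were 1.23-fold and 1.24-fold brighter (limma adjusted p = 0.549 and 0.714). In these values the group without a measured array was raised to the lowest signal well above background, or the probe's own where that is higher. The other group kept its own signal on all arrays, though 5 of the 10 high-Wnt arrays measured each gene, so the values are not strict bounds. The adenomyoepitheliomas, measured on 0 of 4 arrays and raised in this way, came out 1.31-fold and 1.34-fold above the solid carcinomas. The values thus depend on the floor of each array. All rest on the tumor color after normalization between arrays, and each group holds both dye orientations equally.

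**Figure D3:**
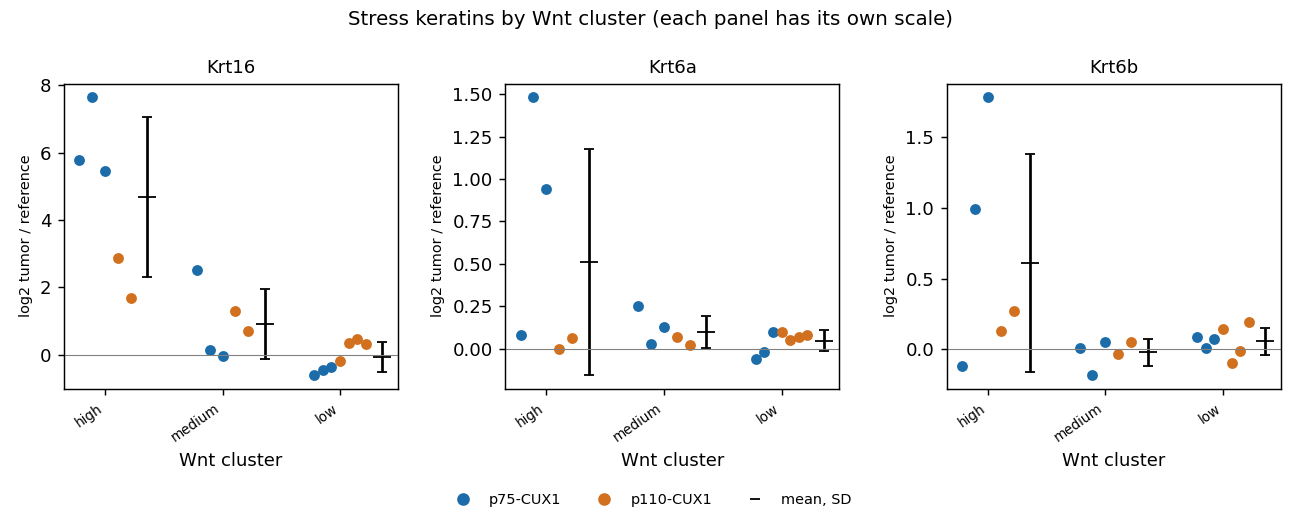
Log2 ratio of tumor over reference RNA (vertical axis, its own scale in each panel) of Krt16, Krt6a and Krt6b by Wnt cluster (horizontal axis), 1 point a tumor, colored by transgene, with mean and SD beside. Krt16 of the 5 high-Wnt tumors, 1.69 to 7.64, lies above that of the 7 low-Wnt tumors, -0.60 to 0.47, while Krt6a and Krt6b are near 0 except in p75-80 and p75-94.

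The remaining keratins did not pass over all genes between high-Wnt and low-Wnt tumors. Krt5 (8.13 ± 0.91, SD, n = 5, against 4.86 ± 3.06, SD, n = 7), Krt14 (4.99 ± 2.02 against 3.04 ± 1.12), Krt17 (5.69 ± 1.40 against 3.29 ± 1.49) and Krt7 (4.14 ± 0.90 against 2.28 ± 1.45) had higher means in high-Wnt tumors, with limma adjusted p of 0.444, 0.406, 0.274 and 0.476. The clusters overlapped for each, and the other Krt7 probe differed by 0.06. Krt8 averaged 1.70 and 1.56 and Krt18 1.53 and 1.02, and the small differences of 0.14 and 0.51 turned negative with median centering and without the 3 dimmest tumors. Krt19 was lower on average in high-Wnt tumors, 2.01 ± 2.00 against 2.45 ± 1.07 (adjusted p = 0.911), and the difference changed sign without p75-94. Within the transgenes these differences had opposite signs. High-Wnt minus low-Wnt was -0.72, -0.12 and -1.76 for Krt8, Krt18 and Krt19 in p75-CUX1 tumors (exact two-sided permutation p = 0.3, 0.9 and 0.1, the last with no overlap and the smallest that 3 against 3 allow) and 1.2, 1.44 and 1.39 in p110-CUX1 tumors (exact two-sided permutation p = 0.133, 0.133 and 0.4). In the p110-CUX1 tumors Krt8 and Krt18 also did not overlap, with high-Wnt above low-Wnt, the lowest high-Wnt value being 2.29 over a highest low-Wnt value of 1.94 for Krt8 and 1.77 over 1.58 for Krt18. The other Krt8 probe overlapped, with 1.51 in the high-Wnt tumor p110-225 and 2.06 in the low-Wnt tumor p110-314. The contrast of the Krt8, Krt18 and Krt19 differences between transgenes did not pass (limma adjusted p = 0.698, 0.821 and 0.609). Its sign turned for Krt18 with Feature Extraction signals, median centering, scaled arrays and the tumor color alone, and for Krt8 with median centering. Marker lists moved in this contrast too. Its median was -3.93 over the 5 myoepithelial markers, 4 of them at an unadjusted p under 0.05, and -4.87 over the 4 adipocyte markers, 1 at such a p. It was -2.2 over the 6 fibroblast markers, 1 at such a p, and -1.2 over the 6 immune markers, 2 at such a p. The median was 0.753 over the 4 epithelium, 0.46 over the 4 endothelium and 0.161 over the 5 squamous markers. Over Krt7, Krt8, Krt18 and Krt19 it was -2.53. Between high-Wnt and low-Wnt tumors as a whole the 4 epithelium markers had lower means in high-Wnt tumors, with a median difference of -0.929, 2 of 4 at an unadjusted p under 0.05 and 0 called. The part of these markers in the luminal keratin values was not tested. At an unadjusted p under 0.05, 5 of the 10 keratins (Krt16, Krt17, Krt6b, Krt6a and Krt14) and 3424 of the 28786 genes differed by limma. Of these keratins, Krt6a and Krt6b were measured on no low-Wnt array.

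Krt8 was above the reference in 16 of the 17 tumors, and the other luminal keratins in most. Leaving out p110-121, Krt8 ran from 0.17 in p75-94 to 2.81 in p75-90 with a median of 1.84, and Krt18 from -0.09 in p110-360 to 3.13 in p110-374 with a median of 1.28. Krt19 ran from -0.68 to 4.82 with a median of 2.37. In p110-121 the values were -4.32, -4.91 and -3.37, the lowest of all, and Krt19 was there not well above background on every array. The second Krt8 probe gave -3.94 in that tumor and followed the brighter probe in all, with the same sign in 17 of 17 tumors and a gap of at most 0.78. Between adenosquamous and solid carcinomas Krt8 and Krt18 differed by 0.38 and 0.51, and by -0.28 and -0.15 (turned to lower in adenosquamous) without p110-121, all within the SD of either type (exact two-sided permutation p from 0.499 to 0.834). The lowest Krt19 outside p110-121 was in the adenosquamous carcinoma p75-94, which also had the lowest Krt8 of the other 16 tumors.

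Krt8 and Krt18 rose and fell together. Pearson's r was 0.96 and Spearman's rho 0.89 over 17 tumors (permutation p = 2e-05 and 1e-05, two-sided, 0.00012 and 6e-05 after Benjamini-Hochberg over 6 keratin pairs). The smallest p these resamples can give is 1e-05. The relation held without p110-121 (r = 0.83, n = 16, permutation p = 0.00018) and without the 2 tumors farthest from the Krt8 median, p110-121 and p75-94 (r = 0.852, n = 15, permutation p = 5e-05). Within p75-CUX1 tumors r was 0.829 (n = 9, exact permutation p = 0.0094) and within p110-CUX1 tumors 0.981 (n = 8, exact permutation p = 0.00052). Among 4711 genes well above background in every tumor, whose median r with Krt8 was 0.065, Krt18 had the highest r over the 17 tumors and ranked 3 without p110-121. Irx1, an Iroquois homeobox gene (r = 0.926), 2210410P13Rik (r = 0.902) and Trip6, an adaptor of cell contacts (r = 0.898), followed, beside a transcript with no gene name in the files (r = 0.942). Without p110-121 r was 0.548 for Irx1, 0.76 for 2210410P13Rik, 0.622 for Trip6 and 0.613 for the unnamed transcript (n = 16), which then ranked 236, 16, 96 and 114, with a median r of 0.031 over the candidates.

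**Figure D4:**
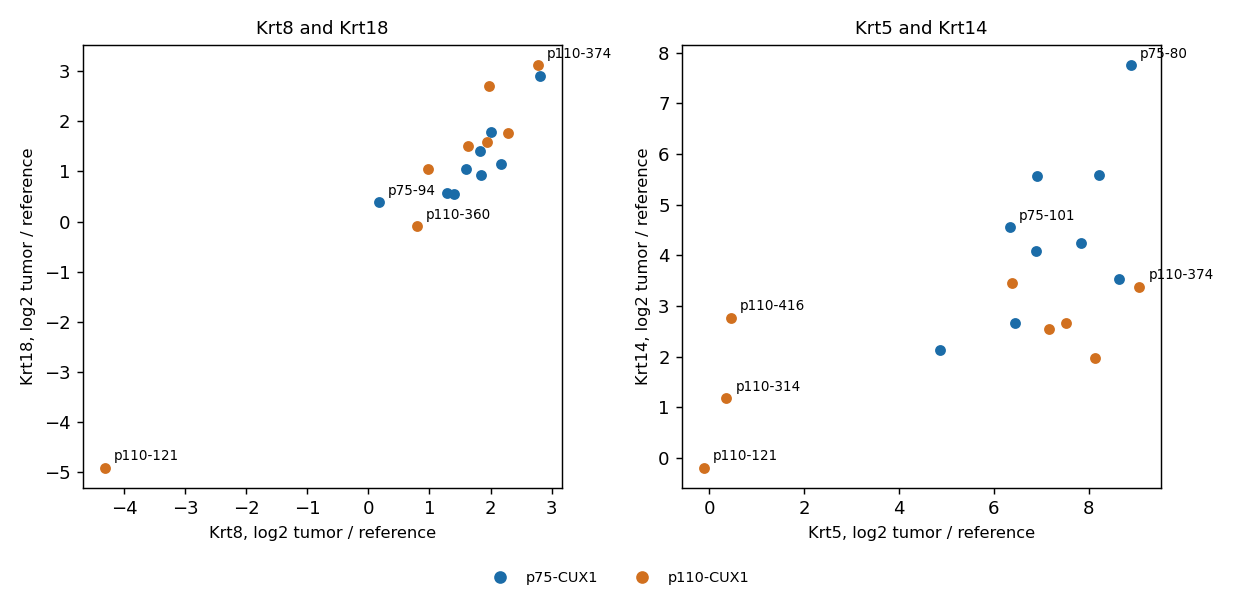
Log2 ratios of tumor over reference RNA of Krt18 against Krt8 (left) and of Krt14 against Krt5 (right), 1 point a tumor, colored by transgene. Krt8 and Krt18 lie along a line with p110-121 far below the rest, whereas Krt5 splits into 3 tumors near 0 and 14 from 4.86 to 9.07, among which Krt14 spreads widely.

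For the basal partners the relation depended on the processing. Since 3 tumors form a cluster with Krt5 near 0, no r over all tumors is given, and in the other 14 Krt5 and Krt14 had r = 0.376 and rho = 0.231 (permutation p = 0.19 and 0.43, both two-sided, 0.22 and 0.52 adjusted over the 6 pairs). Without p75-129 and p110-374 r was 0.341 (n = 12, permutation p = 0.28). It was 0.67 in the p75-CUX1 tumors (n = 9, exact permutation p = 0.046), and -0.109 in the 5 p110-CUX1 tumors, which are too few to read a relation from. Precision is lower for Krt5 than for the other keratins: its ratio differed between swapped dyes by a median of 1.94 and by up to 6.04 in p75-80. With the tumor in Cy5 alone r was 0.671 and passed (unadjusted permutation p under the threshold of 0.05), as it did with median centering (0.773), scaled arrays (0.766), the tumor color alone (0.821) and without the 3 dimmest tumors (0.644), whereas with the tumor in Cy3 alone it was -0.112. Between basal and luminal keratins, Krt5 with Krt8 had r = 0.455 (n = 14, permutation p = 0.1), which passed with scaled arrays (0.718), in Cy3 alone (0.874) and without p75-80 (0.564), and Krt14 with Krt18 r = 0.306 over 17 tumors (permutation p = 0.22), which passed with Feature Extraction signals (0.612), median centering (0.515) and in the tumor color alone (0.537), and became -0.298 without p110-121 (n = 16, permutation p = 0.26). Krt7 with Krt19 had r = 0.558 (permutation p = 0.018, 0.036 adjusted) and rho = 0.539 (permutation p = 0.028, 0.084 adjusted), but r fell to 0.331 without p110-121 (n = 16, permutation p = 0.21) and to 0.195 without p110-121 and p110-416 (n = 15, permutation p = 0.49), so the relation rests on these samples. Krt6a with Krt16 had r = 0.783 over 17 tumors (permutation p = 0.0018, 0.0054 adjusted) and rho = 0.417 (permutation p = 0.096), but Krt6a was measured in 3 tumors, and without p75-80 and p75-94 r was 0.255 (n = 15, permutation p = 0.32), so this relation rests on those samples.

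For Krt14 the genes of most similar pattern over the 17 tumors, among 4712 well above background in each, were Hmgcs1, of cholesterol synthesis (r = 0.838), Itgb4, the integrin β4 of hemidesmosomes (r = 0.833), Prss12, a serine protease (r = 0.805), Impad1 (r = 0.804) and Zfp329 (r = 0.787). The median r of these candidates with Krt14 was 0.045. Without p110-121 the 5 had r of 0.708 to 0.803 (n = 16). For Krt6a they were Avpi1 (r = 0.875), Hmgcs1 (r = 0.834), Rbbp8 (r = 0.770), Wnt6, a Wnt ligand (r = 0.755) and Rnd3 (r = 0.755), though the ratio of Krt6a varied above background in p75-80 and p75-94 alone.

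The adenomyoepitheliomas, tumors of luminal and myoepithelial cells, had high ratios of keratins from both layers. Krt7 was 5.93 in p75-90 and 5.61 in p110-374, the highest of the 17 tumors, and the solid carcinomas ran from -0.54 to 4.28 with a median of 1.09. Krt5 was 8.65 and 9.07, Krt17 5.52 and 6.92, Krt8 2.81 and 2.78, and Krt18 2.90 and 3.13. For these 5 keratins both adenomyoepitheliomas lay above every solid carcinoma, 5 of 10 keratins against 3.8% of all genes. This count rests on the brighter probes, for with the other probes of Krt7 and Krt8 the types overlapped, which leaves 3 of 10: Krt5, Krt17 and Krt18. The other Krt8 probe was 2.02 in p110-374 and 2.32 in the solid carcinoma p75-534, with a difference between the types of 1.31 (exact two-sided permutation p = 0.236). The solid maxima were 7.52 for Krt5, 4.93 for Krt17, 2.29 for Krt8 and 1.77 for Krt18. Krt14, by contrast, was 3.54 and 3.38, inside the solid range. The mean log2 ratio of 5 myoepithelial markers was 2.70 in p75-90 and 3.57 in p110-374, the highest of all tumors. Next were 2.47 in the adenoma p110-98 and 2.27 in the solid carcinoma p110-225, which are also dim. Of the 5, Oxtr, measured in 2 tumors, had a lower mean in adenomyoepitheliomas than in solid carcinomas (difference -0.431). The luminal part of the label was not checked by these markers. Their part in the keratin values was not tested. With 2 tumors of this type precision is low. Tumor signal was also weak, well above background at 20.9% of probes in p110-374 and 31.1% in p75-90. The dim tumors p110-225 and p110-98, at 24.7% and 23%, had the next highest Krt7, 4.28 and 4.08. In p110-121, at 31.2%, Krt7 was lowest. The part of signal strength in these keratin values was not tested. Krt6a and Krt6b were well above background on 0 of the 4 adenomyoepithelioma arrays and on 2 of the 22 solid ones, so their fitted differences are not read. Those of the other 8 keratins ran from 1.09 for Krt14 to 4.42 for Krt5. The median over all 10, with the fitted values of Krt6a and Krt6b, was 2.02 against 0.00502 over all genes. None of the 10 passed over all genes, where 0.0868% were called. At an unadjusted p under 0.05 there were 3137 genes and 3 keratins, Krt5, Krt7 and Krt17. Krt7 came nearest, with a difference of 3.81 (SE 1.07, limma adjusted p = 0.267). The exact two-sided permutation p was 0.0182, the smallest that 2 against 9 tumors allow. Without p110-121 the difference of Krt7 was 3.50 (exact two-sided permutation p = 0.0222), that of Krt5 3.85 and that of Krt17 3.0 (0.0889 for both). Krt18 differed by 2.61 with p110-121 and by 1.94 without it (exact two-sided permutation p = 0.164 and 0.0222).

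The Krt7 result depends on the probe. The other Krt7 probe, whose stretch shown above has no polyadenylation signal, gave 2.91 in p75-90 and 1.24 in p110-374, against 5.93 and 5.61 from the brighter one. Its difference between adenomyoepitheliomas and solid carcinomas was 1.43 and the types overlapped (exact two-sided permutation p = 0.0727). Across tumors the probes had r = 0.761, a median gap of 1.82 and the same sign in 15 of 17 tumors.

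By transgene, the keratins overlapped in every case. Krt14 was higher on average in p75-CUX1 tumors, from 2.13 to 7.76 with a median of 4.24, than in p110-CUX1 tumors, from -0.19 to 3.46 with a median of 2.60. The difference was 2.23 (SE 0.70), with an adjusted p of 0.149 from limma and an exact two-sided permutation p of 0.00498. It was 1.89 without p110-121 (exact two-sided permutation p = 0.0135) and 0.89 among solid carcinomas alone (exact two-sided permutation p = 0.381, 3 against 6 tumors), while all 4 adenosquamous carcinomas are p75-CUX1 tumors. With median centering it was 3.12 and in the tumor color alone 3.17, and both passed, whereas with histological type as a covariate it was 0.74. Median centering also called Krt7 (2.32, limma adjusted p = 0.0295) and Krt17 (2.33, limma adjusted p = 0.0478), but with this setting 1241 genes were called, 1172 of them higher in p75-CUX1. Called keratins numbered 0 of 10 and those without overlap 0 of 10, where 0.459% of all genes were called by limma and 0.125% had a p75-CUX1 range wholly above that of p110-CUX1. At an unadjusted p under 0.05, Krt14 was the 1 keratin and 4039 genes were found by limma.

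**Figure D5:**
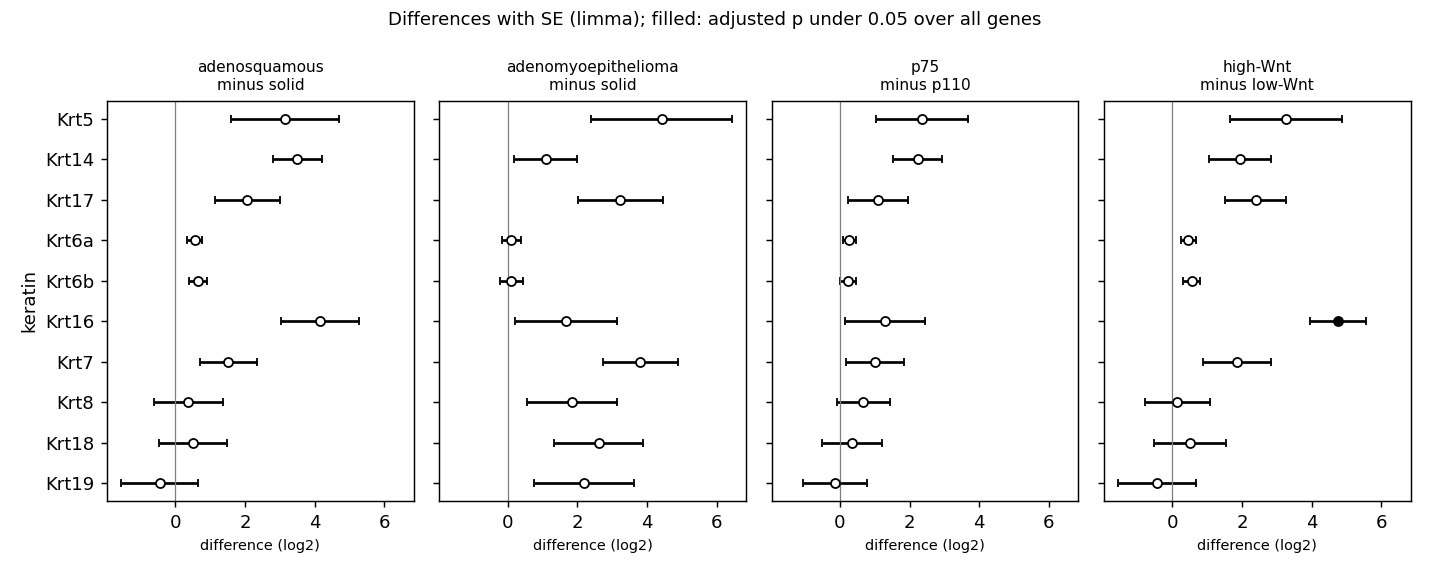
Difference of mean log2 ratios (horizontal axis) with its SE from limma for the 10 keratins (vertical axis) in the comparisons by type, transgene and cluster, filled where the adjusted p over all genes was under 0.05. Krt16 between high-Wnt and low-Wnt tumors, 4.76, is the filled point, and the bars of Krt8, Krt18 and Krt19 cross 0 in every panel but that of the adenomyoepitheliomas.

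Of 41 other keratin genes listed, 32 were on the array, and 0 were called in any of the comparisons. Their median difference was 0.149 between adenosquamous and solid carcinomas and 0.377 between high-Wnt and low-Wnt tumors, beside -0.00611 and 0.0145 over all genes. At an unadjusted limma p under 0.05 there were 10 and 8 of the 32, beside 1588 and 3424 of 28786 genes, and 0% and 0.184% of all genes were called. Their mean ratio was highest in p75-94 and p75-80, at 1.30 and 1.19, the tumors in which Krt6a and Krt6b were raised, and at most 0.56 elsewhere. Of 18 genes of desmosomes and keratin linkers, which anchor keratin filaments to cell contacts, 3 and 1 had an unadjusted p under 0.05 in these comparisons, with median differences of 0.176 and 0.269 and 0 calls. Between adenomyoepitheliomas and solid carcinomas 6 of these 18 genes had such a p (median difference 0.606), and between transgenes 7 (median difference 0.316), with 0 calls. Over all genes these numbers were 3137 and 4039 of 28786. The mean of the 18 was lowest in p110-121 (-0.55), followed by p110-314 (-0.01) and p110-416 (0.33), the 3 tumors low in Krt5. Between adenosquamous and solid carcinomas and between high-Wnt and low-Wnt tumors, the 14 keratin regulators on the array had 3 and 3 at an unadjusted p under 0.05. Their medians were 0.284 and 0.0125, with 0 calls as well. Limma called 0 genes of the fibroblast, endothelium, immune, adipocyte, epithelium, myoepithelial and squamous lists as well. At an unadjusted p under 0.05 there were 3 of 5 squamous markers between adenosquamous and solid carcinomas (median difference 0.149) and 3 of 5 between high-Wnt and low-Wnt tumors (median difference 0.504, 5 of 5 higher), and 4 of 5 myoepithelial markers between adenomyoepitheliomas and solid carcinomas (median difference 2.06). In the other 5 lists at most 2 genes each had such a p in any comparison. Of the 5 squamous markers, Ivl and Flg were well above background in 0 tumors, Krt1 in 5, Lor in 10 and Krt10 in 17. The 3 counted above were Lor, Krt1 and Ivl in both comparisons, and the 5 of 5 higher include Ivl and Flg. Krt10, a keratin of differentiating epidermis, was 0.16 to 0.75 in the adenosquamous carcinomas, within its range of -0.03 to 1.59 in the solid ones. Lor, loricrin of the cornified envelope, was 4.20 in p75-80, the tumor with the highest Krt14, Krt16 and Krt6a, whereas p75-47, next in Krt14 and Krt16, had a mean of -0.04 over the squamous markers with 1 of 5 measured.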

How the data were processed

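Agilent whole mouse genome arrays of 2 colors were analysed for 17 tumors, with 38 arrays in dye swaps, 2 to 4 per tumor. The scanner intensity values and the table of log2 ratios were deposited by the authors, and the ratios were recomputed from the intensities to within 4.98e-08 as normexp background correction (offset 50), loess within arrays and the mean over dye swaps, turned to tumor over reference. Marks of spots well above background are those deposited per the file headers. A gene had 1 value, from its brightest probe. Histological type and transgene came from the labels, and Wnt clusters from the grouping that the study drew on these arrays. limma 3.58.1 in R 4.3.3 fitted all 17 tumors at 28786 genes, and p-values were adjusted by Benjamini-Hochberg across these genes and called under 0.05. Single values had exact two-sided permutation tests, and 6 keratin pairs had permutation tests of 100000 resamples, exact under 10 tumors.

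The 10 keratins and all gene lists were chosen with earlier results of these data known. Genes named were the 10 keratins, any gene of the other lists called over all genes, and the 5 genes most like Krt14, Krt8 and Krt6a in pattern. Markers of cell types named singly (such as Cldn7, Ptprc, Lyz2, Acta2, Cnn1, Lor and Krt10) fall outside this rule and were chosen after their values were seen. Leaving out p110-121 and taking the pairs of Krt5 over 14 tumors were also chosen after seeing the data. Lists covered other keratins, desmosome and keratin linker genes, keratin regulators and markers of fibroblast, endothelium, immune, adipocyte, epithelium, myoepithelial and squamous cells. Of the probes, 55.7% matched RefSeq by accession, and the others kept the name in the files. The fits were tested on simulated data. Alternatives were other background corrections, normalizations, probe rules, dye orientations, blocks, covariates and subsets of tumors, and leaving out 1 tumor at a time. Arrays give no read depth, and the number of tumors limits the precision.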

Additional observations from a re-analysis of the deposited data

Results flagged for a closer look

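Among 70 sets of keratin values tested for a sample far from its group, 9 had a gap between the extreme tumor and its nearest neighbor that was large for the range of the group. Chance gives about 1 in 20, and 7 of the 9 are the tumor p110-121.

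Krt8 in p110-121 was -4.32, and the gap to the next solid carcinoma, at 0.79, was 0.772 of the range of the 9 tumors. Within the medium-Wnt tumors the gap to 1.41 was 0.803 of the range, and within the p110-CUX1 tumors it was 0.72. For Krt18, at -4.91, the gap was 0.721 of the range among solid carcinomas, where the next tumor had -0.09, and 0.599 among p110-CUX1 tumors. For Krt19, at -3.37, it was 0.533 among solid carcinomas and 0.75 among medium-Wnt tumors. Epithelium markers were not well above background in that tumor and the mean of the immune markers was highest in it, and their part was not tested.

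Krt16 in the solid carcinoma p110-225 was 2.86, with the next solid carcinoma at 0.69, a gap of 0.652 of the range. Krt18 in the low-Wnt tumor p110-360 was -0.09, with the next at 0.92, a gap of 0.607 of the range.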

How the results depend on the processing

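Precision is limited by the number of tumors, by p110-121, by the dim tumors p110-98, p110-374 and p110-225, and by dye: the median gap between swapped dyes was 1.94 for Krt5 and 1.22 for Krt14. Krt6a and Krt6b were measured in 3 tumors, and have no value with a filter of 4 tumors above background. No paired analysis was possible because replicate numbers in the labels pair no tumors. Over all settings, single keratin differences and keratin pairs kept direction and call in 1636 cases, lost a call in 16, gained one in 21 and turned direction in 51. The 51 include turns of Krt6a and Krt6b, which are not read where a group had no measured array. Since 1 keratin difference was called in the main fits, most of the cases kept were uncalled before and after. Krt16 between high-Wnt and low-Wnt tumors gave 12 of the 16 losses. The pair Krt6a with Krt16 was left out of these settings. The cause of the changes below was not tested.

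Krt16 between high-Wnt and low-Wnt tumors stayed positive but lost its call with no background correction (adjusted p = 0.0937), median centering (0.581), arrays scaled to the same spread (0.308), the tumor color alone (0.0716) and the tumor in Cy5 alone (0.0849), beside the tumors named in the report.

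Genes called by limma between adenosquamous and solid carcinomas numbered 0, with 1588 at an unadjusted p under 0.05, and 1 with the Feature Extraction signals, and 0 to 27 with a tumor left out, 27 being without p75-101. For adenomyoepithelioma against solid carcinoma 25 genes were called, 10 with no background correction, 0 with median centering (which also moved the median of all genes from 0.00502 to -0.104), 5 with scaled arrays, 7 in Cy5 alone and 78 without the 3 dimmest tumors. With a tumor left out they ranged from 10 (without p75-129) to 206 (without p110-225). For p75-CUX1 against p110-CUX1 132 genes were called, 61 of them higher in p75-CUX1. There were 211 with no background correction, 308 with Feature Extraction signals, 1241 with median centering (1172 higher), 64 with scaled arrays, 1787 in the tumor color alone, 259 in Cy5 alone, 70 in Cy3 alone, 85 without the dim tumors, 87 with scan day as a block, 1 with histological type as a covariate and 0 among solid carcinomas alone, and 35 (without p75-47) to 1173 (without p110-314) with a tumor left out. Between high-Wnt and low-Wnt tumors 53 genes were called, 0 with no background correction, with median centering or with scaled arrays, 5 with Feature Extraction signals, 8 in the tumor color alone, 7 in Cy5 alone, 9 in Cy3 alone, 22 with trend and robust estimation, 118 with transgene as a covariate and 143 with these clusters alone. The range with a tumor left out was 8 (without p110-374 or p110-360) to 129 (without p75-216). For the contrast of the cluster difference between transgenes 3 genes were called, 18 without outlier spots, 7 with no background correction, 75 with Feature Extraction signals, 1 with median centering, 17 with scaled arrays, 13 in the tumor color alone, 1 in Cy5 alone, 52 in Cy3 alone, 8 with the mean of probes, 21 with scan day and 35 with slide as a block, and 2 (without p75-129) to 786 (without p110-143) with a tumor left out.

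Some differences turned direction, and not all of them were small in the main fit. The contrast between transgenes was -2.07 for Krt17, -1.92 for Krt8 and -1.56 for Krt18. Krt16 differed by 1.3 between transgenes, and Krt14 by 1.09 between adenomyoepitheliomas and solid carcinomas. With a tumor left out, Krt19, Krt18 and Krt8 ran from -1.09 to 0.21, -0.15 to 0.69 and -0.28 to 0.76 between adenosquamous and solid carcinomas and from -0.93 to 0.24, -0.47 to 0.67 and -0.089 to 0.92 between transgenes, and Krt19 and Krt8 from -1.14 to 0.23 and -0.13 to 0.52 between clusters. Between adenosquamous and solid carcinomas, Krt19 was 0.23 in the tumor color alone and 0.21 without p75-94, Krt18 was -0.15 and Krt8 -0.28 without p110-121, and Krt8 was -0.40 in p75-CUX1 tumors alone. Between adenomyoepitheliomas and solid carcinomas, Krt6a was -0.0415 with Feature Extraction signals and -0.0235 in Cy3 alone, Krt14 -0.44 with median centering, and Krt6b -0.0128 without the dim tumors and -0.0248 without p110-374. Since 0 of the 4 adenomyoepithelioma arrays measured Krt6a or Krt6b, the size and sign of their values are not read here either. Between p75-CUX1 and p110-CUX1, Krt19 was 0.30 with Feature Extraction signals, 1.26 with median centering, 1.14 in the tumor color alone, 0.18 in Cy5 alone, 0.84 without the dim tumors, 0.20 without p75-94, 0.12 without p110-98, 0.096 without p110-314, 0.24 without p110-374, 0.55 with histological type as a covariate and 1.11 among solid carcinomas. Without p110-121, Krt18 was -0.47 and Krt8 -0.089. With histological type as a covariate, Krt16 was -0.62 and Krt6b -0.13, and among solid carcinomas Krt16 was -0.98, Krt6b -0.096 and Krt6a -0.013. Krt6a and Krt6b were measured on 0 of the 20 p110-CUX1 arrays, so neither the size nor the sign of their values here is read. Between high-Wnt and low-Wnt tumors, Krt18 was -0.026 with Feature Extraction signals and in the tumor color alone, -0.42 with median centering and -0.11 without the dim tumors. Krt8 was -0.14 with Feature Extraction signals, with scaled arrays and with the mean of probes, -0.79 with median centering, -0.26 in the tumor color alone, -0.41 without the dim tumors, -0.0078 without p110-225 and -0.13 without p110-374. Krt19 was 0.23 without p75-94. In the contrast between transgenes, Krt18 was 0.036 with Feature Extraction signals, 0.46 with median centering, 0.28 with scaled arrays and 0.32 in the tumor color alone, Krt17 was 0.11, 0.025 and 0.29 under the last 3 of these, and Krt8 was 0.16 with median centering.

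Of the keratin pairs, Krt5 with Krt14 (r = 0.376) was -0.112 in Cy3 alone, 0.773 with median centering, 0.766 with scaled arrays, 0.821 in the tumor color alone, 0.671 in Cy5 alone and 0.644 without the dim tumors (past the threshold in the last 5), and 0.178 to 0.475 with a tumor left out. Krt5 with Krt8 (r = 0.455) was 0.718 with scaled arrays and 0.874 in Cy3 alone (both past the threshold), and 0.342 to 0.564 with a tumor left out. Krt14 with Krt18 (r = 0.306) was 0.612 with Feature Extraction signals, 0.515 with median centering and 0.537 in the tumor color alone (past the threshold in all 3), and -0.298 to 0.437 with a tumor left out. Krt7 with Krt19 (r = 0.558) was 0.389 with scaled arrays and 0.44 without the dim tumors, and 0.331 to 0.68 with a tumor left out. Krt8 with Krt18 ran from 0.83 to 0.971 with a tumor left out and kept its call.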
